A study of Mus musculus with 12 samples.

Results

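Clone H3116G07 of the NIA Mouse 15 K cDNA set, which the authors' array layout describes as transmembrane 4 superfamily member 6 (Tm4sf6, now Tspan6, on chromosome X), was followed through all 12 arrays of the experiment. It is 1 clone in a deposited table that holds 15599 others. It was chosen from these measurements, for lower values in the knockout mice than in the wild type mice and for the size of that difference, so its levels by mouse, its genotype difference and its rank are given as a description without a test. The layout in hand identifies 572 clones and describes 314 of them, and 0 other clones there carry the name Tm4sf6 or Tspan6.

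Tetraspanins are small proteins that cross the membrane 4 times and gather integrins, immunoglobulin superfamily proteins and proteases into membrane microdomains. They act in cell adhesion and in the sorting of membrane proteins through endosomes and exosomes. Tspan6 is expressed in many tissues and has been linked to the endosomal route. Aquaporin-1, the water channel missing in the knockout mice, serves in the descending thin limb and the descending vasa recta of the medulla, and its loss impairs the concentration of urine.

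RNA came from the kidney medullae of adult mice, 3 of them wild type (WT1 to WT3) and 3 aquaporin-1 knockouts (KO1 to KO3). The labels name the inner medulla and call the labelled material aRNA, and they give no strain, sex or treatment. Each array compared 1 mouse in the green channel with another in the red channel, both labelled with Alexa Fluor dyes, so that each mouse was on 4 arrays, 2 in each dye. There were 6 direct arrays of a knockout against a wild type mouse, 3 arrays of wild type mice and 3 arrays of knockout mice. Aqp1 had 0 clones among those identified, so the labels could not be checked by the deleted gene, and the medulla could not be checked by its marker genes. The number of arrays limits the precision of each mouse's effect, and the number of mice that of a difference between the genotypes.

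The fitted effect of Tm4sf6 was lower in every knockout mouse than in every wild type mouse. The mean effect was 0.53 ± 0.14 (SD, n = 3) in wild type mice and -0.53 ± 0.51 (SD, n = 3) in knockout mice on the log2 scale, a difference of -1.06 that corresponds to 2.08-fold more signal in the wild type on this scale. Its standard error was 0.303 from the spread between the mice and 0.196 from the arrays. The knockout mice were not alike: KO1 stood near the wild type mice, within the array error, while KO2 and KO3 stood well below them. In whole tissue, fewer cells of a type and less RNA per cell cannot be told apart.

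The deposited values of H3116G07 are log2 differences of the green mouse minus the red mouse, and arrays are named here with the green mouse first. With a wild type mouse in green, the direct arrays gave 0.78 for WT2/KO1, 0.69 for WT3/KO1 and 1.69 for WT3/KO2. With a knockout mouse in green they gave -1.74 for KO2/WT1, -0.28 for KO3/WT2 and -1.15 for KO3/WT1. The knockout mouse was therefore the lower one on 6 of 6 direct arrays, a pattern that 4.65% of all clones showed (1.95% showed the opposite).

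The sign turned with the orientation. As deposited, the mean was 1.05 ± 0.55 (SD, n = 3 arrays) with wild type in green. It was -1.06 ± 0.73 (SD, n = 3 arrays) with knockout in green. The orientations did not hold the same pairs, since on the direct arrays KO1 was only in red and KO3 only in green. Removing the fitted dye effect of 0.29 lowered the size with wild type in green and raised it with knockout in green. The close match in size therefore held only with the dye effect left in. The arrays within the wild type gave 0.74 for WT1/WT3, -0.33 for WT1/WT2 and 0.39 for WT2/WT3. Those within the knockout gave 0.38 for KO2/KO3, 1.18 for KO1/KO3 and 1.12 for KO1/KO2. Both arrays of KO1 against another knockout thus exceeded the 3 wild type arrays in size and also exceeded the arrays of WT2 and WT3 against KO1.

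**Figure D1:**
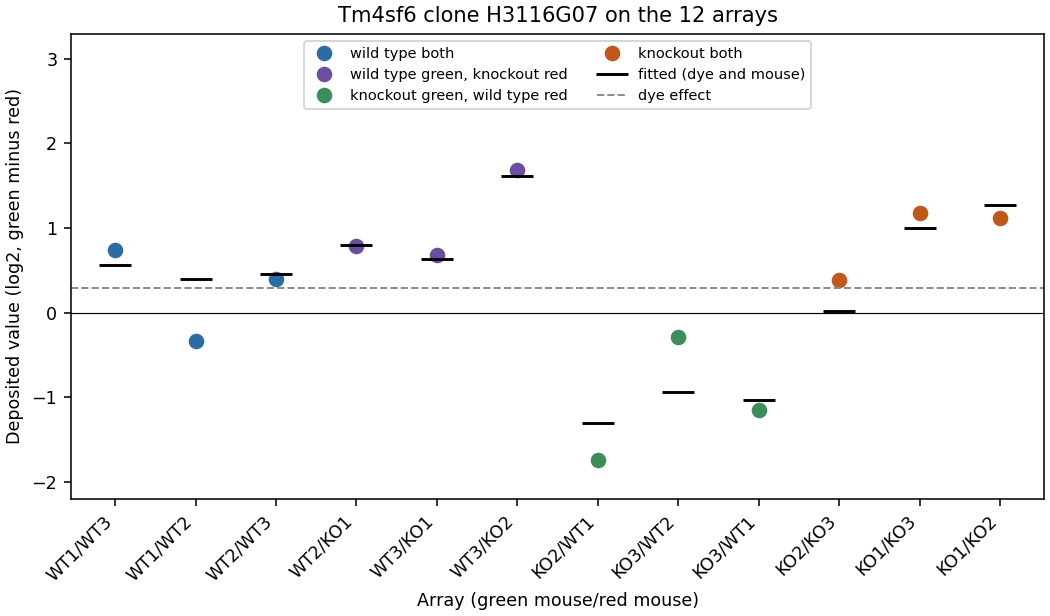
Deposited value of H3116G07 on each of the 12 arrays (log2, green minus red mouse), coloured by the genotypes compared, with the value fitted from the dye and the mice as a black bar and the dye effect as a dashed line. The 3 arrays with wild type in green lie above 0 and the 3 with knockout in green lie below it.

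A dye term and the mice together were fitted to the 12 values, which left 6 residual degrees of freedom. The effects, relative to the mean of the 6 mice and each with a standard error of 0.204, were 0.65 for WT1, 0.55 for WT2 and 0.38 for WT3. They were 0.04 for KO1, -0.94 for KO2 and -0.68 for KO3. The order from high to low was WT1, WT2, WT3, KO1, KO3 and KO2.

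No pair of neighbours in this order differed beyond the array error. WT1 and WT2 differed by 0.11 and WT2 and WT3 by 0.16. The step across the genotypes, from WT3 to KO1, was 0.35 ± 0.31 (SE; 95% interval -0.41 to 1.11). That from KO1 to KO3 was 0.71 (-0.05 to 1.47) and that from KO3 to KO2 was 0.27 (-0.49 to 1.03). These intervals describe the array error of a clone chosen on these effects and are no test.

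The largest difference within a genotype lay between KO1 and KO2, at 0.98 ± 0.31 (SE). KO2 and KO3 lay below the 3 wild type mice by 1.06 (WT3 over KO3) to 1.60 (WT1 over KO2), and KO1 by 0.35 to 0.62. The differences of WT1 over KO1 (95% interval -0.21 to 1.45) and WT2 over KO1 (-0.25 to 1.27) were within the array error, as was that of WT3 over KO1. Those of the wild type mice over KO2 and KO3 were beyond it. These intervals too are no test. The effects spread over 0.98 in the knockout and 0.27 in the wild type. The distance between the genotypes at their nearest mice, 0.35, was thus smaller than the spread within the knockout.

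All 9 pairs of a knockout and a wild type mouse had the knockout lower in effect, though the pairs with KO1 were within the array error. The same order of the genotypes, all 3 knockout effects below all 3 wild type effects, was found in 1382 clones (8.86%), and the reverse order in 1074 (6.88%). Together with the sign on all 6 direct arrays it was found in 476 (3.05%). Since the clone was chosen for this order, nothing is read from the count.

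The genotypes were apart within each dye. When the 2 arrays with a mouse in green were averaged, with the fitted dye effect and the other mouse's effect removed, the wild type mice lay at 0.38, 0.51 and 0.45 and the knockout mice at 0.05, -0.98 and -0.41, each in the order of mouse 1 to 3. In red, the wild type mice lay at 0.92, 0.59 and 0.32 and the knockout mice at 0.02, -0.91 and -0.95. This held in 376 clones (2.41%). Means of both dyes rest on effects fitted to all 12 arrays, so they are not separate measurements. The clone was chosen on these values, and nothing is read from the count.

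The agreement between a mouse's 4 arrays was uneven. KO1 and WT3 were the tightest, with single-array estimates from -0.11 to 0.22 and from 0.20 to 0.46. WT2 was the widest, from -0.10 on the array with KO3 to 1.28 on the array with WT1. The estimates of KO2 ran from -1.38 to -0.58 and those of KO3 from -1.04 to -0.03, so that single arrays of KO3 overlapped those of WT1 and WT2, and single arrays of KO1 those of all 3 wild type mice, although the effects did not overlap.

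**Figure D2:**
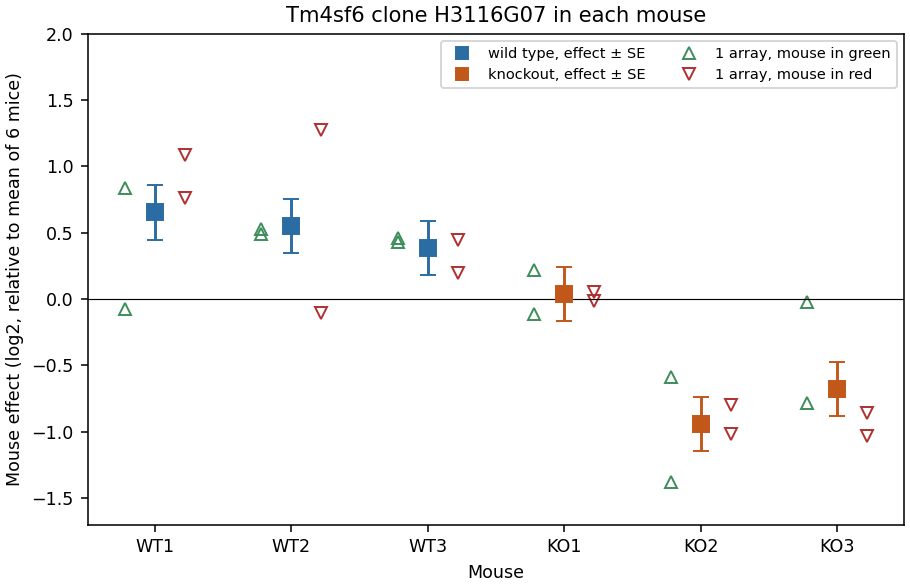
Effect of each mouse on H3116G07 (squares, ± SE from the 12 arrays; log2 relative to the mean of the 6 mice) with the estimate from each of its 4 arrays (triangles, green or red by the dye of the mouse). The 3 knockout effects, from -0.94 to 0.04, lie below the 3 wild type effects, from 0.38 to 0.65, and KO1 lies nearest to the wild type.

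The size of the dye effect was not a criterion in the choice of the clone. The order of the genotypes in both dyes was, on the same 12 arrays, so the dye test is not independent of that choice. H3116G07 read 0.29 ± 0.14 (SE, 12 arrays) higher in green than in red, which did not pass the threshold in limma after adjustment over all clones (adjusted p = 0.232, and 0.0513 to 0.424 over the alternatives). A dye effect was called in 0.34% of all clones (0.0577% in the plain fit), and 53.1% read higher in green. Each mouse was measured in both dyes, so the dye effect cancelled in the mouse effects, and the genotype difference was the same without the dye term.

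The fit left a residual SD of 0.48 for this clone, at the 67.3 percentile of all clones, whose median was 0.37. Of its 12 residuals, 8 were under 0.2 in size. The largest were -0.73 on WT1/WT2 and 0.65 on KO3/WT2, both arrays of WT2. Around the triangle of knockout arrays the values closed to within 0.03 after the dye was removed, against a median size of 0.50 for all clones, whereas around the triangle of wild type arrays they closed to -0.97, against a median size of 0.40.

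The genotype difference of -1.06 ranked 177 from the lowest among all clones, so that 1.13% of clones were as low or lower. The rank was 99 without the array WT3/KO1, 115 without KO3/WT2, 286 without WT3/KO2 and 95 with a dye term for each day. By size in either direction it ranked 208, and by limma's moderated t it ranked 176. The clones just ahead of it, H3109B02 at -1.06 and H3119F09 at -1.06, and those just behind, H3099G09 at -1.05 and H3118E07 at -1.05, have no description in the layout in hand. The median difference of all clones was 0.00, the 5th percentile -0.56 and the 1st percentile -1.10. Ranks and shares given here are over all clones with no filter on signal, whereas the paper counts only part of the genes as confidently measured. The signal of H3116G07 itself was not examined.

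The range of H3116G07 over the 6 mice, 1.60, was at the 94.6 percentile, against a median of 0.53, and 5.44% of clones had a range as wide or wider. Between the genotypes, 0 clones (0%) were called in limma on the 6 mouse effects at an adjusted p under 0.05, and no adjusted p lay below 0.213. Without adjustment, at a p under 0.05, limma listed 1022 clones as lower in the knockout (6.55%) and 464 as higher (2.97%), and the plain fit listed 1238 in both directions (7.94%). Among the 314 described clones, 8 had a difference at or below that of H3116G07, itself included, and 45 (14.3%) had all knockout mice below all wild type mice.

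**Figure D3:**
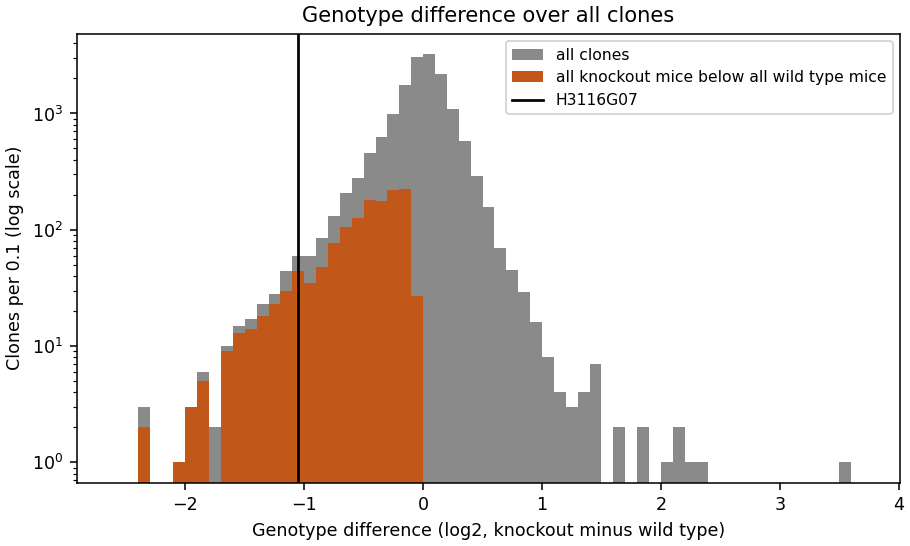
Histogram of the genotype difference (log2, knockout minus wild type) of all clones, on a logarithmic axis of clones per 0.1, with the clones whose knockout effects all lie below the wild type effects in orange. The black line marks H3116G07 at -1.06, rank 177 from the lowest.

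Arrays with the knockout KO3 had a wider spread over all clones, with an SD of 0.646 to 0.895 on those 4 arrays against 0.403 to 0.614 on the other 8, and those 4 arrays carry days in the authors' array names that no other array carries. The names do not say what was done on a day, and 1 array (KO1/KO2) carries none and is named as a rescan. Without KO3 the Tm4sf6 difference was -1.25, so it was larger without that mouse. By day, with the fitted dye effect removed, the direct arrays averaged -0.45 on the first day (WT2 and WT3 against KO1), -1.72 on the next (WT3 and WT1 against KO2) and -1.01 on the third (WT2 and WT1 against KO3). Each day held a single knockout mouse in its direct arrays, so for the differences among KO1, KO2 and KO3 on those arrays the day and the mouse cannot be told apart. Only the second day held both orientations, and as deposited, with the dye effect left in, the first and the third day gave -0.73 and -0.72.

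No setting turned the sign of the difference, which ran from -1.72 to -0.45 over the alternatives, both ends from the direct arrays of a single day. Leaving out KO2, the lowest mouse, gave -0.71 and rank 664, and leaving out WT1, the highest, gave -0.72 and rank 583. Leaving out KO1 gave -1.32 and rank 71. In each of the 6 settings that left out a mouse, all 6 remaining pairs had the knockout lower.

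**Figure D4:**
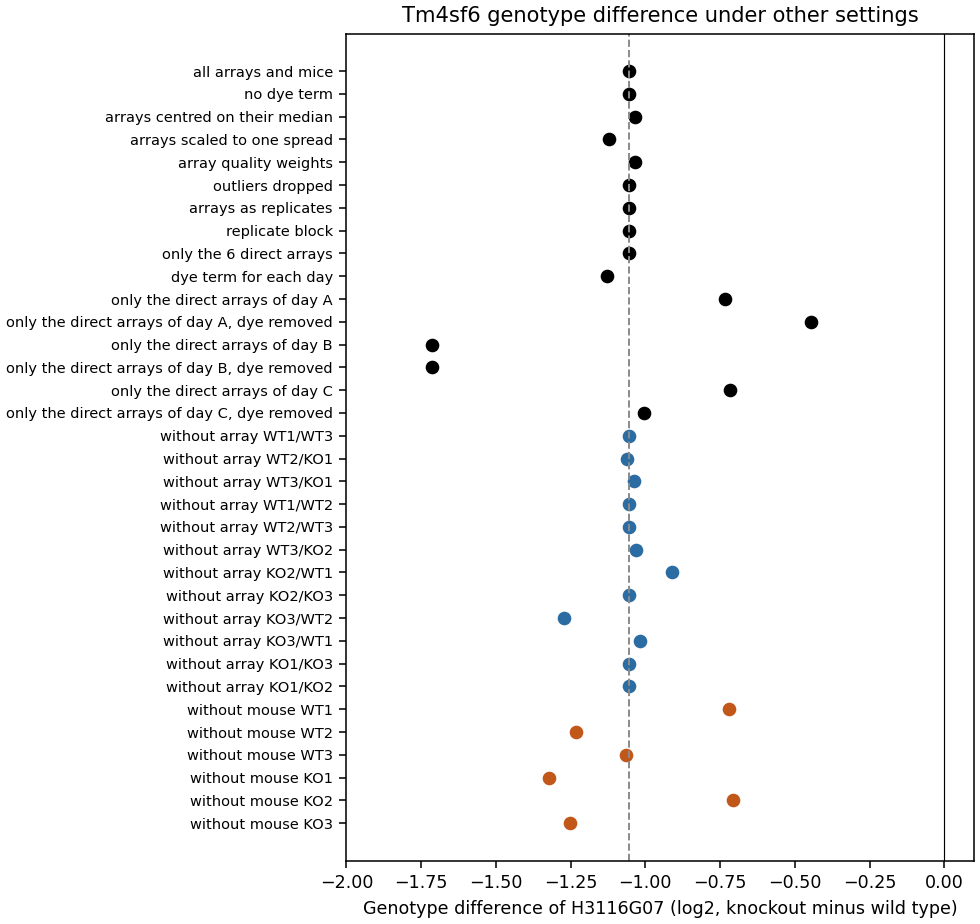
Genotype difference of H3116G07 (log2, knockout minus wild type) with all arrays and mice and under each other setting, with arrays left out in blue, mice left out in orange and the value from all arrays as a dashed line (day A is the first, B the second and C the third). Every point lies below 0, from -1.72 on the direct arrays of the second day to -0.45 on those of the first day with the dye effect removed.

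Of the 32 genes in the tetraspanin list, 2 had an identified clone. The other was Cd63 (H3075G01, chromosome 10), a tetraspanin of late endosomes, lysosomes and exosomes. Its effects were -0.13, 0.93 and 0.44 in WT1 to WT3 and 0.29, -0.31 and -1.22 in KO1 to KO3. The genotypes overlapped, since KO1 lay above WT1. The Cd63 difference of -0.83 did not pass the test (limma on the 6 mouse effects, adjusted p = 0.606). H3116G07 was chosen on this contrast, so no test result is given for it.

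The Cd63 clone was noisier than the Tm4sf6 clone, with a residual SD of 1.09. In both, KO1 was the highest of the knockout mice. The lowest was KO3 for Cd63 and KO2 for Tm4sf6. The 6 effects of the 2 clones had a Pearson correlation of 0.699 over mice that share arrays.

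Clones with a pattern like that of Tm4sf6 were ranked by the Pearson correlation of the 6 mouse effects, among the 4512 clones (28.9%) with a range of at least 50% of its own. Of these, 74 carried a symbol. All points come from the same 6 mice and 12 arrays, so the correlations describe a shared pattern over 6 values and carry no test. A correlation of 0.9 or more was reached by 286 of all clones (1.83%), and one of -0.9 or less by 153.

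The most similar symbol was AI788721 (H3069G01, r = 0.958), followed by MGC37173 (H3093H01, r = 0.916). Next was Pdha1 (H3068G07, r = 0.912), the E1 alpha subunit of pyruvate dehydrogenase, with a difference of -0.67. Osp94, now Hspa4l (H3143H07, r = 0.910), is a heat shock protein relative named for its response to osmotic stress, and its difference was -1.59. It was larger than that of Tm4sf6, and its knockout effects (-0.57, -1.17 and -0.63) kept the order in which KO1 was highest and KO2 lowest.

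Uqcrc1 (H3080H01, r = 0.902), a core subunit of respiratory complex III, differed by -1.05, close to Tm4sf6, but its mice ran evenly down from 0.98 in WT1 to -0.92 in KO3. The sixth was 1110002A21Rik, now Unc50 (H3069G07, r = 0.898), at -1.02. In 4 of these 6 clones all knockout mice lay below all wild type mice (8.86% of all clones, 14.3% of described clones), a count largely set by the choice of clones that follow Tm4sf6, the exceptions being MGC37173 and Pdha1, where KO1 lay among the wild type. KO1 was the highest of the knockout mice in all 6, as in Tm4sf6, which was also largely set by this choice.

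Among the clones with a symbol, those most opposed to Tm4sf6 had weaker correlations than those most alike. Evpl (H3077G07, r = -0.770), which encodes the cornified envelope and desmosome protein envoplakin, was 0.69 higher in the knockout, with all knockout mice above all wild type mice. Slc21a2, now Slco2a1 (H3106H07, r = -0.636), a prostaglandin transporter, Mybl2 (H3073H07, r = -0.569), a transcription factor of the cell cycle, and 2410007P03Rik, now Haus2 (H3078H01, r = -0.561), a subunit of the augmin complex of the spindle, had genotypes that overlapped. Without a symbol, H3009A12 followed Tm4sf6 most closely (r = 0.991, difference -1.05), then H3130H05 (r = 0.989, difference -0.53). H3105C10 (r = -0.961) and H3149E10 (r = -0.952) ran most opposed.

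**Figure D5:**
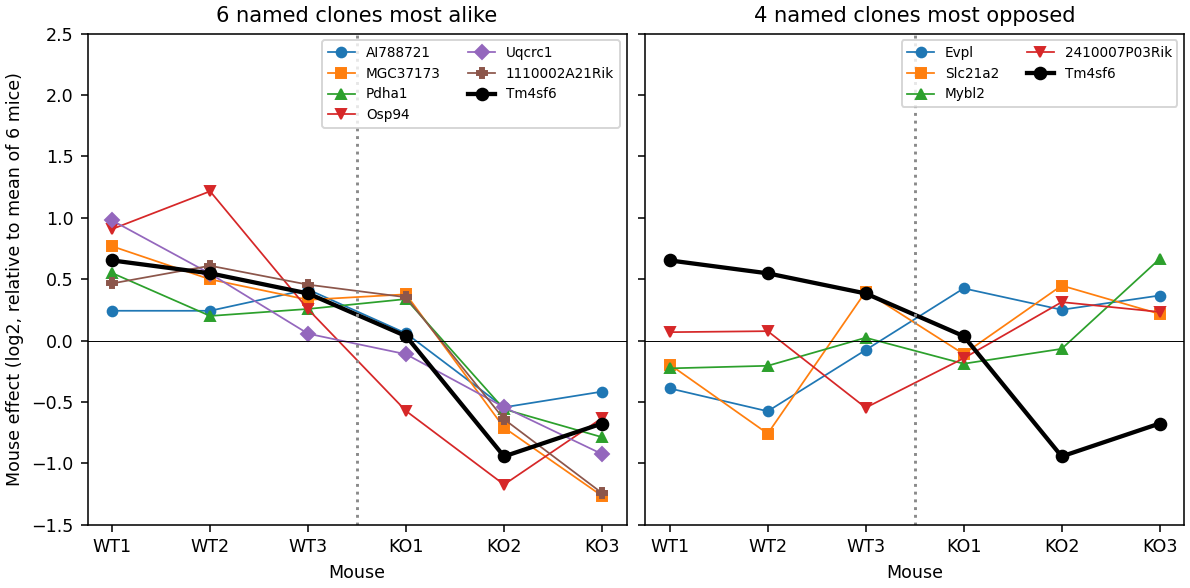
Mouse effects (log2 relative to the mean of the 6 mice) of the 6 named clones most alike to H3116G07 (left) and the 4 most opposed (right), with H3116G07 in black and a dotted line between the wild type and the knockout mice. In the left panel every clone falls between KO1 and KO2, largely because the clones were chosen to follow H3116G07. In the right panel only Evpl has all knockout mice above all wild type mice.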

How the data were processed

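Each of the 12 arrays compared 2 of the 6 mice, the unit of replication. As the authors describe, the local background was subtracted from each spot of the images found with softWoRx Tracker. Intensities were transformed by linlog, which is linear at low signal. They were normalized by lowess in CARMA, within each array (for position and intensity) and also across the arrays. Duplicate spots were averaged. The deposited values are log2 differences, channel 1 minus channel 2, without missing values (0), so that a fold is on this scale and understates the change of weak spots. Direction was checked on 100 clones per array against the authors' normalized channels, within 0.01 on 12 of 12 arrays. The labels assigned mice and genotypes.

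A linear model of dye and mouse was fitted to each clone in R 4.3.3. The genotypes were compared on the 6 mouse effects and the dye effect on the 12 arrays with limma 3.58.1, with Benjamini-Hochberg adjustment over all clones. Intervals (95%) rest on the array error and leave out the spread between mice. The fit was run on simulated data, with a larger planted genotype difference and a smaller planted spread between mice than H3116G07 had. That run is no measure of the power for such a clone. Figures used Python 3.11.15 and matplotlib 3.10.9.

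The clone, lists and settings were chosen with earlier results of these data known. Named were H3116G07, clones of the same gene, Aqp1, the tetraspanin and partner lists, neighbours on the chromosome within 1 Mb, the 6 most and 4 least correlated clones with a symbol, and 2 without one on each side. Symbols came from the part of the authors' layout in hand, of which 194 of 220 matched a current RefSeq symbol. The partner list, the chromosome neighbours and the lists of collecting duct, intercalated, thin limb, thick limb, proximal tubule, urothelial, vessel, interstitial, immune, red cell, osmotic and sex genes each had 0 identified clones and were not analysed here, nor was Aqp1.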

Additional observations from a re-analysis of the deposited data

Results flagged for a closer look

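The 4 single-array estimates of mouse WT3 for H3116G07 were 0.46, 0.44, 0.43 and 0.20. The lowest, from the array of WT1 in green against WT3 in red, lay apart from the other 3, with a gap of 0.901 of the whole range above Dixon's critical value for 4 values. The whole range was narrower than that of any other mouse. The 6 mice were each looked at in this way, and chance flags about 1 in 20 such groups. The estimates of a mouse share the fitted effects of its opponents and are not independent.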

How the results depend on the processing

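The settings were no dye term, median centring, array quality weights, scaling to a common spread, dropping outliers (0 of the 1468 values dropped were of H3116G07), arrays as replicates, only the direct arrays, a block, a dye term per day, and leaving out each array or mouse. A plain fit, a robust prior and an adjusted p under 0.01 served the tests alone. Of the results under these settings, 167 stayed within their limits and 19 moved, and 0 turned direction. For the difference of H3116G07 the limit was the pooled SD of the mice, 0.37, so -0.71 without KO2 counted as staying. In this balanced design, leaving out the dye term or an array within a genotype could not move the difference. Nor could a block, arrays as replicates or only the direct arrays. These counts are therefore no measure of robustness. The difference of H3116G07 was -1.27 (without KO3/WT2) to -0.91 (without KO2/WT1) with an array left out and -1.32 to -0.71 with a mouse left out. The direct arrays of the second day alone gave -1.72, with or without the dye effect removed, and those of the first day gave -0.45 with it removed, settings chosen after seeing the data. Its rank was 99 (without WT3/KO1) to 286 (without WT3/KO2) with an array left out, with 115 without KO3/WT2, and 64 (without WT2) to 664 (without KO2) with a mouse left out. A dye term per day, also chosen after seeing the data for the rank, gave rank 95. The range over the mice was 1.27 to 1.84 with an array left out and 1.06 (without WT1) to 1.97 (without KO3) with a mouse left out. Clones with all knockout mice lower numbered 1164 to 1669 with an array left out and 1863 to 2584 with a mouse left out, where fewer mice have to be ordered. The dye effect was 0.18 to 0.41 with an array left out. With arrays as replicates, which treats the 12 arrays as independent, 229 clones were called between genotypes against 0, and 0 in each setting that left out an array or a mouse. The cause of the other moves was not tested.

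With mouse numbers as a replicate block, the difference of H3116G07 was -1.06 and 0 clones were called. The deviations of mice of the same number had correlations of -0.08, -0.24 and -0.04 over all clones. Mice of the same number shared no array, unlike all other pairs (SE of the difference of H3116G07 0.339 against 0.310). Array error therefore lowers these correlations. Whether these mice share more than a number was not tested.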

Other observations

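The layout in hand places 7 other described clones on chromosome X, where the gene of H3116G07 also lies. Their genotype differences were all below 0, from -0.67 (Pdha1) to -0.01 (H3036G01), with a median of -0.25. Of all clones 50.3% were below 0, with a median of 0.00, and of the 314 described clones, from which these 7 come, 58.0% were, with a median of -0.04. None of these 7 passed the test (limma on the 6 mouse effects, adjusted p 0.545 to 0.989). Hsd17b10 (H3123H01), a mitochondrial dehydrogenase, was the only one of them with all knockout mice below all wild type mice, at a difference of -0.49 (1 of 7, where 14.3% of the described clones and 8.86% of all clones had that order), and its lowest mouse was KO3 at -0.85. Fundc1 (H3134G01), a receptor of mitophagy listed as 1500005J14Rik, was at -0.40. Itm2a (H3150G01) and Nxf2 (H3145H01) were at -0.05 and -0.03. The 7 clones follow the chromosomes of the layout alone. H3018G01 (Ddx3, now Ddx3x), which the layout places on chromosome 6, is not among them. The sex of the mice is not given in the sources used here.

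The other 95 clones of the source plate of H3116G07 had differences from -1.18 to 0.55 with a median of 0.04, and 6 of them (6.32%, against 8.86% of all clones) had all knockout mice below all wild type mice. The 8 clones printed nearest to it on the array had differences from -0.48 to 0.59 with a median of 0.02. Their dye effects ran from -0.05 (H3109G01) to 0.65 (H3132G07), with that of H3116G07 at 0.29. Whether the dye effect follows the place on the array was not tested.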
